A study of Homo sapiens with 8 samples.

Results

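The polyamines putrescine, spermidine and spermine are made and broken down by a small set of enzymes, and the transcripts of 10 genes of this set were followed in Kasumi-1 cells that received NR4A1 messenger RNA. The genes are ODC1, AMD1, SRM and SMS for synthesis, OAZ1, OAZ2 and AZIN1 for the control of ornithine decarboxylase, and SAT1, SMOX and PAOX for breakdown. Members were all probe sets annotated with exactly 1 gene symbol for one of these genes, which gave 22 of the 54613 probe sets on the array and 10 of the 19775 genes that had such a probe set. Transcripts were quantified on Affymetrix U133 Plus 2.0 arrays, and every level below is a log2 intensity after robust multiarray averaging (RMA), so that a difference of 1 is a doubling. In Affymetrix names, _s_at marks a probe set that may read several transcripts of a family and _x_at one with probes that may cross-hybridise. Kasumi-1 is an established human acute myeloid leukemia line that carries the AML-ETO (RUNX1-RUNX1T1) fusion. All cultures were electroporated with in vitro transcribed RNA and harvested 6 h later. The RNA encoded GFP in the 3 control arrays, unmutated NR4A1 (NR4A1 WT) in 3 arrays, and NR4A1 with a mutated DNA-binding domain (NR4A1 CEAA) in 2 arrays. NR4A1 is an orphan nuclear receptor, and the design asks what the introduced receptor does to the transcriptome and how much of it needs the intact DNA-binding domain. One line stands for the disease here, and the labels do not say whether the replicates were separate cultures, so the p-values measure the spread between arrays, which may be technical.

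Ornithine decarboxylase, encoded by ODC1, turns ornithine into putrescine and is the classical rate-limiting step of the pathway. S-adenosylmethionine decarboxylase (AMD1) supplies the aminopropyl groups that spermidine synthase (SRM) and spermine synthase (SMS) add to putrescine and to spermidine. Antizymes such as OAZ1 and OAZ2 bind ornithine decarboxylase and send it to the proteasome, and the antizyme inhibitor AZIN1 resembles the enzyme and sequesters the antizymes. SAT1 acetylates spermidine and spermine, PAOX oxidises the acetylated products, and SMOX oxidises spermine directly. Polyamine synthesis is high in proliferating cells, and ODC1 is a textbook target of MYC, which binds the E-box motif.

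RefSeq promoter windows of 300 bases (250 before and 50 after a transcription start, GRCh38.p14) were used for 7 of the 10 genes, 10 windows in all. The canonical E-box was searched as CACGTG, which reads the same on both strands and occurred in 7.26% of all 35116 windows. Among the members' windows it was found in that of SRM, at position 52 counted from the 5′ end, and in that of the inner of the ODC1 starts, at positions 222 and 256. The window of the outer ODC1 start and those of AMD1 (3 windows), SMS, OAZ1, OAZ2 and SAT1 did not contain these letters. AMD1, without the letters, fell after NR4A1 WT as SRM and ODC1 did. Of the other genes without them, OAZ2 and SAT1 rose and SMS and OAZ1 were not called. A relation of the letters to these changes was not tested. The windows with the letters are shown, with the outer ODC1 start and SAT1, which rose, as windows without them. The first line lies at chr1:11059989-11060268 on the minus strand, the second at chr2:10448298-10448577 on the minus strand, the third at chr2:10447983-10448082 on the minus strand and the fourth at chrX:23782923-23783202 on the plus strand. Each ends 30 bases after its start, the third shows positions 181 to 280 of its window, and capitals mark CACGTG.
SRM: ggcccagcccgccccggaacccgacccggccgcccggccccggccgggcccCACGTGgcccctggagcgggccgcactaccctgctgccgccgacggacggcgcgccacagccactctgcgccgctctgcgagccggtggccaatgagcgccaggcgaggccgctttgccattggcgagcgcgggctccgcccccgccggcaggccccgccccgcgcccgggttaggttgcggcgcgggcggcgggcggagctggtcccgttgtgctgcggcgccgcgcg
ODC1 outer start: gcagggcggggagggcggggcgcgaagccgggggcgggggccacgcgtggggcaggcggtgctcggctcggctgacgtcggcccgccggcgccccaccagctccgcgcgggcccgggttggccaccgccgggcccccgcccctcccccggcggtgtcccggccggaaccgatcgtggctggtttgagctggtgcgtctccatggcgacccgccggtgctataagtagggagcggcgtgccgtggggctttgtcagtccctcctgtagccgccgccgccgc
ODC1 inner start: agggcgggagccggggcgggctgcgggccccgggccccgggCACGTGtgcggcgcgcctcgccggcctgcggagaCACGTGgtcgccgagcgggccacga
SAT1: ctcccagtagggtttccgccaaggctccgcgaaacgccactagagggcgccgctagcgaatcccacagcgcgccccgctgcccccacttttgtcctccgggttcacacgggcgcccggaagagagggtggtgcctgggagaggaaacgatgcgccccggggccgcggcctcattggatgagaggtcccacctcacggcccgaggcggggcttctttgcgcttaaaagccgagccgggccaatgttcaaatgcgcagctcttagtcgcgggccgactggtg
The NR4A monomer response element was searched as aaaggtca on both strands. It was in 1.22% of all windows and in no member's window. An ETS motif, ccggaagt on both strands, was in 4.14% of all windows and again in no member's window. The exact letters TATAAA, searched on both strands for the TATA box, were in 11.5% of all windows. Among the members they were in the window of OAZ1 alone, at position 257, which lies past the transcription start. Variants of these letters were not searched, so the search does not tell which members have a TATA box. These matches describe the letters of the windows only, and binding was not measured on these arrays.

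The arrays were closely matched in scale, with medians between 4.75 and 4.8. The spread of the differences between a pair of arrays (their SD over all probe sets) was 0.158 to 0.227 within a group, 0.291 to 0.314 between GFP and NR4A1 WT, 0.276 to 0.302 between GFP and NR4A1 CEAA and 0.344 to 0.39 between both NR4A1 groups. Over the 22 member probe sets alone the same SD was 0.0838 to 0.272 within groups, 0.362 to 0.466 between GFP and NR4A1 WT, 0.282 to 0.315 between GFP and NR4A1 CEAA and 0.513 to 0.606 between both NR4A1 groups. The 3 probe sets of NR4A1 itself did not separate the groups, with 5.06 to 6.66 over all arrays, so they gave no check of the labels. Of the 4 RAP1A probe sets, 1555340_x_at and 1555339_at did set GFP apart, the first at 14.34 to 14.43 in the GFP arrays against 4.14 to 5.42 in the others. What they bind was not tested. Of the 7 myeloid blast markers, 6 had a usable probe set, and each of these was above the array median in all 8 arrays, with MPO at 14.34 to 14.43 and KIT at 13.45 to 13.78. Their summed level was 15.18 to 15.21 after GFP, 15.10 to 15.15 after NR4A1 WT and 15.27 to 15.28 after NR4A1 CEAA. It is the log2 of the sum of unlogged intensities, so the brightest genes dominate it. Within the list, group means in the same order were 9.76, 9.30 and 9.15 for ELANE and 11.46, 11.10 and 11.60 for RUNX1T1 (228827_at). For CD34 they were 7.57, 7.84 and 7.61. Of 9 markers of other cell types, 5 were above the median in all arrays, among them EPCAM at 11.43 to 11.86. The summed level of the 9, made in the same way and dominated by EPCAM, was 11.81 to 11.84, 11.61 to 11.70 and 11.93 to 12.00 in the same order. The part of these shifts in the results below was not tested.

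Among the synthesis genes, ODC1, AMD1 and SRM transcripts fell after NR4A1 WT and SMS was not called. After NR4A1 CEAA, AMD1 rose at 1 of its 2 probe sets and SRM fell. The direct comparison of NR4A1 WT with NR4A1 CEAA separated ODC1 and AMD1 and did not separate SRM. Tests are limma's moderated tests over all 54613 probe sets with Benjamini-Hochberg adjustment, and a change is called at an adjusted p under 0.05. Each array averages the RNA of a whole culture, so fewer cells with a transcript and less of it per cell cannot be told apart.

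The ODC1 probe set 200790_at read 12.24, 12.22 and 12.25 after GFP, 11.72, 11.83 and 11.71 after NR4A1 WT, and 12.43 and 12.46 after NR4A1 CEAA. All NR4A1 WT arrays were below all GFP arrays, and both NR4A1 CEAA arrays were above them. ODC1 was 1.40-fold lower after NR4A1 WT than after GFP (log2 difference -0.48, SE 0.06, limma adjusted p = 0.00127). Against NR4A1 CEAA it was 1.61-fold lower (log2 difference -0.69, SE 0.07, limma adjusted p = 0.000206). The difference of NR4A1 CEAA from GFP, 0.21 on the log2 scale with SE 0.07, did not pass (limma adjusted p = 0.0848). That value was called with an intensity trend in the prior variance (adjusted p = 0.000498), with array weights (0.0411), without dim probe sets (0.0223), after another quantile normalization (0.0371) and with 1 probe set per gene (0.0399).

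AMD1 gave the widest separation among the synthesis genes. Its brighter probe set, 201197_at, read 10, 10.09 and 10.04 after GFP, 9.53, 9.40 and 9.51 after NR4A1 WT, and 10.38 and 10.37 after NR4A1 CEAA. The 3 groups did not overlap, with NR4A1 WT lowest and NR4A1 CEAA highest. AMD1 was 1.48-fold lower after NR4A1 WT than after GFP (log2 difference -0.56, SE 0.06, limma adjusted p = 0.000614). It was 1.26-fold higher after NR4A1 CEAA than after GFP (log2 difference 0.33, SE 0.07, limma adjusted p = 0.0176), and NR4A1 WT lay 0.90 below NR4A1 CEAA (limma adjusted p = 7.03e-05). The rise after NR4A1 CEAA stayed at 0.31 to 0.35 whichever array was left out, but with fewer arrays it did not always pass. The adjusted p was 0.112 without NR4A1 CEAA replicate 1, 0.103 without replicate 2, and 0.0618 or 0.0566 without GFP replicate 1 or 3. The second AMD1 probe set, 201196_s_at, read 9.60, 9.63 and 9.56 after GFP, 9.06, 8.91 and 8.98 after NR4A1 WT, and 9.73 and 9.72 after NR4A1 CEAA. It was 1.53-fold lower after NR4A1 WT (log2 difference -0.61, limma adjusted p = 0.00043), the lowest difference of the 22 probe sets, while its difference of 0.13 after NR4A1 CEAA did not pass (limma adjusted p = 0.308).

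SRM was below GFP after both forms of the receptor. Probe set 201516_at read 11.14, 11.22 and 11.18 after GFP, 10.70, 10.87 and 10.79 after NR4A1 WT, and 10.82 and 10.84 after NR4A1 CEAA. Both NR4A1 groups were below all GFP arrays, and they overlapped with each other. SRM was 1.31-fold lower after NR4A1 WT (log2 difference -0.39, SE 0.07, limma adjusted p = 0.00548) and 1.27-fold lower after NR4A1 CEAA (log2 difference -0.35, SE 0.07, limma adjusted p = 0.0175). The difference between both NR4A1 groups was -0.05, with a 95% interval of -0.21 to 0.12 (limma adjusted p = 0.731). The fall after NR4A1 CEAA was -0.37 to -0.33 whichever array was left out, and did not pass without NR4A1 CEAA replicate 1 (adjusted p = 0.118), NR4A1 CEAA replicate 2 (0.0965), GFP replicate 2 (0.0563) or GFP replicate 3 (0.0561).

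SMS, which makes spermine, was the only synthesis gene with a positive value after NR4A1 WT. Its probe set 202043_s_at read 11.24, 11.20 and 11.24 after GFP, 11.46, 11.46 and 11.37 after NR4A1 WT, and 11.27 and 11.37 after NR4A1 CEAA. The NR4A1 WT arrays were above all GFP arrays, but the log2 difference of 0.20 did not pass (limma adjusted p = 0.0792). It passed with an intensity trend (0.000701), without dim probe sets (0.0196) and with 1 probe set per gene (0.0298). The other differences were 0.10 for NR4A1 CEAA against GFP (limma adjusted p = 0.443) and 0.11 for NR4A1 WT against NR4A1 CEAA (limma adjusted p = 0.334).

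**Figure D1:**
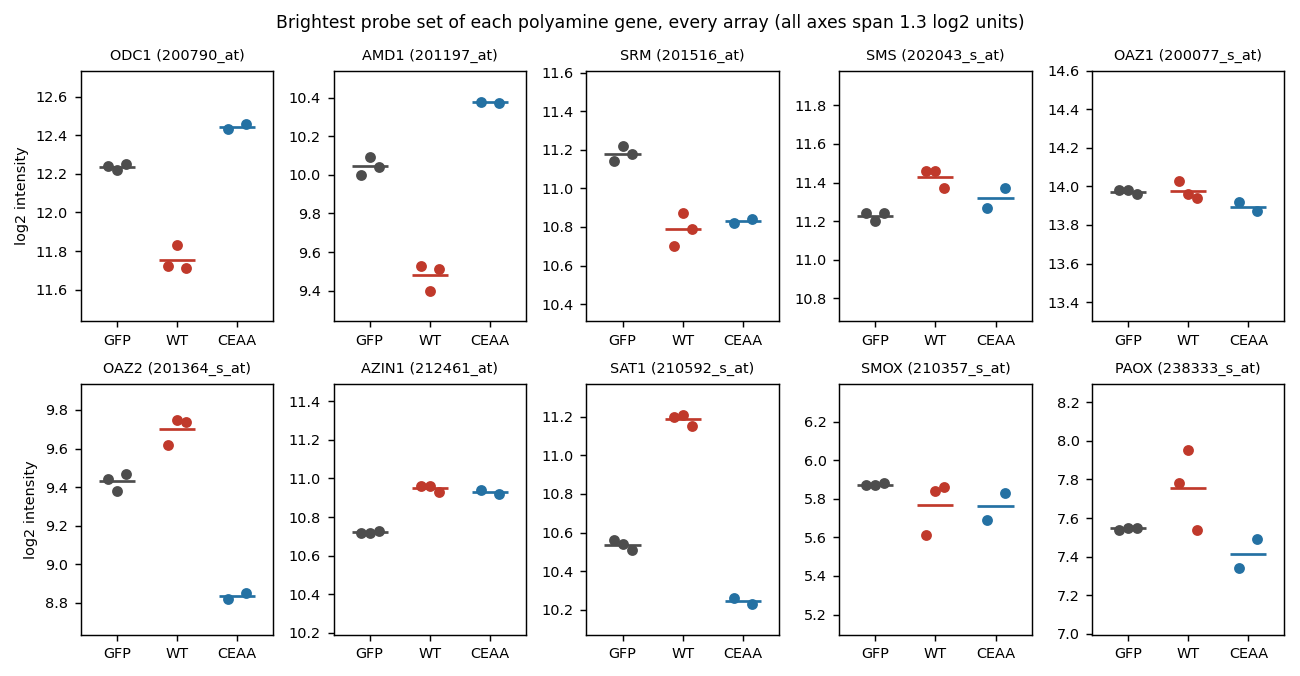
Log2 intensity of the brightest probe set of each of the 10 polyamine genes; each point is 1 array (GFP 3, NR4A1 WT 3, NR4A1 CEAA 2), lines are group means, and every vertical axis spans the same range. ODC1 and AMD1 are lowest after NR4A1 WT and highest after NR4A1 CEAA, OAZ2 and SAT1 show the reverse order, and SRM is at 10.70 to 10.87 in both NR4A1 groups against 11.14 to 11.22 after GFP.

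Among the regulators, both OAZ2 probe sets and 2 of the 3 AZIN1 probe sets rose after NR4A1 WT, and neither OAZ1 probe set was called. After NR4A1 CEAA the brighter OAZ2 probe set fell, and OAZ2 gave the widest separation of both NR4A1 groups among the regulators. Each call was also tested in 16 alternative limma fits (15 for probe sets that are not the brightest of their gene). The rises of OAZ2 and AZIN1 after NR4A1 WT were called in 6 or 7 of them. For NR4A1 WT against GFP, leaving out either NR4A1 CEAA array gave the same result as fitting only the arrays of both groups. These fits are counted separately but are not independent checks.

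OAZ2 encodes an antizyme. Its brighter probe set, 201364_s_at, read 9.44, 9.38 and 9.47 after GFP, 9.62, 9.75 and 9.74 after NR4A1 WT, and 8.82 and 8.85 after NR4A1 CEAA. The groups did not overlap, and their order, NR4A1 WT over GFP over NR4A1 CEAA, was the reverse of that of AMD1. OAZ2 was 1.51-fold lower after NR4A1 CEAA than after GFP (log2 difference -0.60, SE 0.07, limma adjusted p = 0.00181), and this call held in all 16 alternative fits. NR4A1 WT was 1.82-fold above NR4A1 CEAA (log2 difference 0.87, SE 0.07, limma adjusted p = 9.24e-05). The rise after NR4A1 WT was 1.21-fold (log2 difference 0.27, SE 0.06, limma adjusted p = 0.0297) and was called in 7 of 16 alternative fits, with an adjusted p as high as 0.109 without GFP replicate 2. It also did not pass when the fit held only the GFP and NR4A1 WT arrays (0.0546) or left out GFP replicate 1 (0.0858), GFP replicate 3 (0.0671), NR4A1 WT replicate 2 (0.0799), NR4A1 WT replicate 3 (0.084) or either NR4A1 CEAA array (0.0546).

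The second OAZ2 probe set, 201365_at, read 8.16, 8.21 and 8.26 after GFP, 8.41, 8.57 and 8.49 after NR4A1 WT, and 8 and 8.05 after NR4A1 CEAA. It kept the same order of the groups with smaller steps. Its log2 differences were 0.28 for NR4A1 WT against GFP (limma adjusted p = 0.0319), -0.19 for NR4A1 CEAA against GFP (limma adjusted p = 0.155) and 0.47 for NR4A1 WT against NR4A1 CEAA (limma adjusted p = 0.00248). The first of these was called in 6 of 15 fits, with the highest adjusted p, 0.119, without GFP replicate 1, and it was lost without each GFP array, each NR4A1 CEAA array and NR4A1 WT replicate 2 or 3.

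OAZ1, the most widely expressed antizyme, is read by 2 probe sets near the top of the intensity scale. Probe set 200077_s_at read 13.98, 13.98 and 13.96 after GFP, 14.03, 13.96 and 13.94 after NR4A1 WT, and 13.92 and 13.87 after NR4A1 CEAA. The difference of NR4A1 WT from GFP was 0.00, with a 95% interval of -0.13 to 0.13. Probe set 215952_s_at read 13.62, 13.60 and 13.62 after GFP, 13.66, 13.61 and 13.58 after NR4A1 WT, and 13.39 and 13.34 after NR4A1 CEAA. Here both NR4A1 CEAA arrays were below the other 6, with a log2 difference of -0.25 from GFP (limma adjusted p = 0.0405). At 200077_s_at the same difference was -0.08, with a 95% interval of -0.23 to 0.07 that overlaps the -0.39 to -0.10 of 215952_s_at. It did not pass (limma adjusted p = 0.501) other than with the intensity trend (0.04), and the difference between the probe sets was not tested. The call at 215952_s_at did not pass after another quantile normalization (0.121) or without any 1 of the GFP or NR4A1 CEAA arrays (0.0888 to 0.218). Its difference of 0.25 between NR4A1 WT and NR4A1 CEAA (limma adjusted p = 0.0236) was called in 9 of 15 fits and did not pass without NR4A1 CEAA replicate 1 (0.0849), NR4A1 CEAA replicate 2 (0.147) or NR4A1 WT replicate 1 (0.0522).

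AZIN1, the antizyme inhibitor, had positive differences from GFP after both forms of NR4A1. Probe set 212461_at read 10.72, 10.72 and 10.73 after GFP, 10.96, 10.96 and 10.93 after NR4A1 WT, and 10.94 and 10.92 after NR4A1 CEAA. All arrays of both NR4A1 groups were above the GFP arrays and overlapped with each other. The log2 difference was 0.23 after NR4A1 WT (limma adjusted p = 0.0315) and 0.21 after NR4A1 CEAA (limma adjusted p = 0.0619), and between both NR4A1 groups it was 0.02, with a 95% interval of -0.12 to 0.16. The value after NR4A1 CEAA was called with the intensity trend (0.000529), with array weights (0.0306), without dim probe sets (0.0113), after another quantile normalization (0.0303) and with 1 probe set per gene (0.0223). Probe set 201772_at read 9.70, 9.67 and 9.56 after GFP, 10, 9.85 and 9.91 after NR4A1 WT, and 9.80 and 9.81 after NR4A1 CEAA, with differences from GFP of 0.28 (limma adjusted p = 0.0345) and 0.16 (limma adjusted p = 0.231). The dimmer probe set 213747_at read 4.84 to 5.07 after GFP, 5.09 to 5.40 after NR4A1 WT, and 5.42 and 5.66 after NR4A1 CEAA, and passed for NR4A1 CEAA only (log2 difference 0.56, limma adjusted p = 0.0162). Each AZIN1 call after NR4A1 WT was made in 6 fits, of 16 for 212461_at and of 15 for 201772_at. Without single arrays the adjusted p ranged up to 0.103 for 212461_at, which was lost without any 1 of the 8 arrays, and up to 0.123 for 201772_at, which was lost without any array other than NR4A1 WT replicate 2. The call of 213747_at was lost without NR4A1 CEAA replicate 1 (0.0514) or replicate 2 (0.14).

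Among the breakdown genes, all 3 SAT1 probe sets and 2 of the 4 PAOX probe sets rose after NR4A1 WT, and no SMOX probe set was called. After NR4A1 CEAA, 2 of the 3 SAT1 probe sets fell. The widest separation of both NR4A1 groups among all members was that of SAT1.

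SAT1, spermidine/spermine acetyltransferase, is the entry point of the breakdown route that runs through acetylation. Its brightest probe set, 210592_s_at, read 10.56, 10.54 and 10.51 after GFP, 11.20, 11.21 and 11.15 after NR4A1 WT, and 10.26 and 10.23 after NR4A1 CEAA. The groups were far apart relative to their spread and did not overlap. SAT1 was 1.57-fold higher after NR4A1 WT than after GFP (log2 difference 0.65, SE 0.06, limma adjusted p = 0.000168), the highest difference of the 22 probe sets. It was 1.22-fold lower after NR4A1 CEAA (log2 difference -0.29, limma adjusted p = 0.021), and NR4A1 WT was 1.92-fold above NR4A1 CEAA (log2 difference 0.94, limma adjusted p = 3.73e-05).

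The other SAT1 probe sets gave the same order of the groups. Probe set 203455_s_at read 10.31, 10.25 and 10.22 after GFP, 10.96, 10.63 and 10.80 after NR4A1 WT, and 10.19 and 10.10 after NR4A1 CEAA. Its rise after NR4A1 WT was 0.54 (limma adjusted p = 0.00521), and the difference of -0.11 after NR4A1 CEAA did not pass (limma adjusted p = 0.528). Probe set 213988_s_at read 8.94, 8.80 and 8.82 after GFP, 9.44, 9.43 and 9.35 after NR4A1 WT, and 8.32 and 8.39 after NR4A1 CEAA. It rose by 0.55 after NR4A1 WT (limma adjusted p = 0.000991) and fell by 0.50 after NR4A1 CEAA (limma adjusted p = 0.00443), so that both NR4A1 groups were 2.07-fold apart (limma adjusted p = 4.72e-05). The 3 rises after NR4A1 WT were called in every alternative limma fit. The fall after NR4A1 CEAA was called in 14 of 15 fits at 213988_s_at, the exception being that without NR4A1 CEAA replicate 1 (0.0541), and in 10 of 16 at 210592_s_at, where it was lost without any 1 of the GFP or NR4A1 CEAA arrays (0.0547 to 0.134).

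PAOX, the peroxisomal oxidase that acts on acetylated polyamines, is read by 4 probe sets, which differ in what they show. Probe set 50400_at read 7.16, 7.04 and 7.17 after GFP, 7.54, 7.70 and 7.54 after NR4A1 WT, and 6.86 and 6.84 after NR4A1 CEAA. The groups did not overlap, and the rise after NR4A1 WT was 1.39-fold (log2 difference 0.47, limma adjusted p = 0.00331), called in all 15 fits. Probe set 221941_at read 6.97, 6.84 and 6.91 after GFP, 7.09, 7.58 and 7.51 after NR4A1 WT, and 6.72 and 6.65 after NR4A1 CEAA. Its rise of 0.49 (limma adjusted p = 0.0356) was called in 6 of 15 fits, with an adjusted p of 0.117 without GFP replicate 2, and was lost without any array other than NR4A1 WT replicate 1. The brightest PAOX probe set, 238333_s_at, read 7.54 to 7.55 after GFP, 7.54 to 7.95 after NR4A1 WT, and 7.34 and 7.49 after NR4A1 CEAA, and its difference of 0.21 after NR4A1 WT did not pass (limma adjusted p = 0.27). Its difference of 0.34 between both NR4A1 groups did not pass either (limma adjusted p = 0.0636), but did so in 6 alternative fits (0.0112 to 0.0475). The dimmest, 238334_at, differed from GFP by 0.07 after NR4A1 WT (limma adjusted p = 0.723). Against NR4A1 CEAA, NR4A1 WT was higher by 0.74 at 50400_at (limma adjusted p = 0.000315), 0.71 at 221941_at (limma adjusted p = 0.00567) and 0.39 at 238334_at (limma adjusted p = 0.0226). The last of these was lost without NR4A1 CEAA replicate 1 (0.184), NR4A1 WT replicate 1 (0.0563) or NR4A1 WT replicate 2 (0.0612), and that of 221941_at without NR4A1 CEAA replicate 2 (0.052). No PAOX probe set passed for NR4A1 CEAA against GFP, with differences of -0.13 to -0.32. Of these, -0.27 at 50400_at passed in 4 alternative fits (0.0206 to 0.0435) and -0.32 at 238334_at in 2 (0.0319 and 0.0394).

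SMOX, spermine oxidase, gave no call against GFP with all arrays in the model. Its brightest probe set, 210357_s_at, read 5.87, 5.87 and 5.88 after GFP, 5.61, 5.84 and 5.86 after NR4A1 WT, and 5.69 and 5.83 after NR4A1 CEAA, with a difference of -0.10 after NR4A1 WT and a 95% interval of -0.29 to 0.08. The other SMOX probe sets lay near the array median and were below it on 3 and 5 of the 8 arrays. At one of them, 217074_at, NR4A1 WT was 0.45 above NR4A1 CEAA (limma adjusted p = 0.0379), a call lost without any 1 of the GFP or NR4A1 CEAA arrays (0.0572 to 0.231). Its difference of -0.35 between NR4A1 CEAA and GFP (limma adjusted p = 0.129) passed with only the arrays of both groups (0.03) and without NR4A1 WT replicate 2 (0.0223). The values of 1555680_a_at spread from 3.96 to 4.97 within the NR4A1 WT group, and no difference of this probe set passed.

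**Figure D2:**
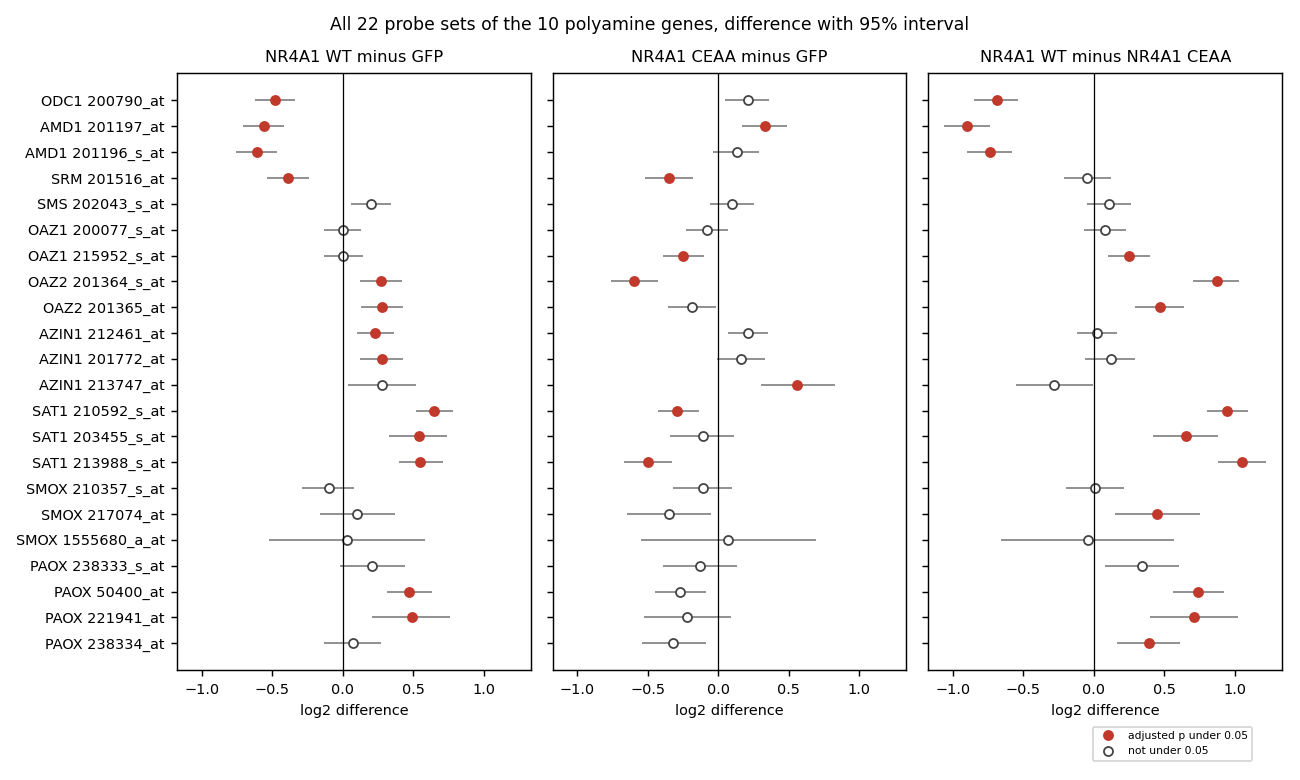
Log2 difference of group means for all 22 probe sets of the 10 genes in the 3 comparisons, with 95% intervals from limma; filled red points have an adjusted p under 0.05. After NR4A1 WT the called synthesis probe sets are below 0 and the called SAT1, PAOX, OAZ2 and AZIN1 probe sets above it; in the right-hand comparison SAT1 reaches 1.05 and AMD1 reaches -0.90.

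Over all 22 probe sets, NR4A1 WT against GFP gave 9 higher and 4 lower calls. The same fit called 5.06% of all probe sets higher and 5.56% lower. The 4 lower calls were among the 5 synthesis probe sets, 4 of the higher calls were among the 7 regulator probe sets and 5 among the 10 breakdown probe sets. The median log2 difference was -0.48 for synthesis, 0.27 for regulators and 0.34 for breakdown, against 0.00 for all probe sets on the array. By the brightest probe set of each gene, 3 of the 10 genes were higher (OAZ2, AZIN1 and SAT1) and 3 lower (ODC1, AMD1 and SRM), where 7.48% and 8.03% of all genes were. These shares and those given below for all probe sets or genes include dim ones and were not matched to the members in intensity. Without dim probe sets, limma called 10 of the 20 member probe sets left higher and 4 lower. Of all 27263 probe sets left by that filter, it called 3570 higher and 4031 lower. Rank Product, the test named in the methods of the study, called SAT1 210592_s_at higher (q = 0.0307) and AMD1 201196_s_at lower (q = 0.0461) at q up to 0.05, and 1.4% of all probe sets higher and 1.32% lower.

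NR4A1 CEAA against GFP gave 2 higher and 5 lower calls over the 22 probe sets, with 5.91% of all probe sets called higher and 6.81% lower. The higher calls were AMD1 201197_at and AZIN1 213747_at. The lower calls were SRM, OAZ1 215952_s_at, OAZ2 201364_s_at and the SAT1 probe sets 210592_s_at and 213988_s_at. The median log2 difference was 0.13 for synthesis, -0.08 for regulators and -0.25 for breakdown, against -0.01 for all probe sets. By the brightest probe set, AMD1 was higher and SRM, OAZ2 and SAT1 were lower, where 5.2% of all genes were higher and 9.57% lower. Without dim probe sets, limma called 4 of 20 member probe sets higher and 7 lower, and 4138 of all 27263 higher and 4945 lower. Rank Product called 0 of the 22 in either direction, and 0.656% of all probe sets higher and 0.732% lower. At an unadjusted p under 0.05, Rank Product counted 2 higher and 5 lower among the 22, and limma 4 and 9. The share of all probe sets at that threshold was not counted, so these numbers have no background to be read against.

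NR4A1 WT against NR4A1 CEAA gave 10 higher and 3 lower calls, while 11.2% of all probe sets were called higher and 10.9% lower. The 3 lower calls were ODC1 and both AMD1 probe sets. The higher calls were 3 of the 7 regulator probe sets (both of OAZ2 and OAZ1 215952_s_at) and 7 of the 10 breakdown probe sets (all of SAT1, SMOX 217074_at and 3 of PAOX). The median was -0.69 for synthesis, 0.12 for regulators and 0.55 for breakdown, against 0.02 for all probe sets. By the brightest probe set, OAZ2 and SAT1 were higher and ODC1 and AMD1 lower, where 15.6% of all genes were higher and 11.5% lower. Without dim probe sets, limma called 10 of 20 member probe sets higher and 3 lower, and 6532 of all 27263 higher and 6175 lower. Rank Product called SAT1 213988_s_at higher (q = 0.037), and 0.837% of all probe sets higher and 0.959% lower.

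The comparisons of NR4A1 WT and of NR4A1 CEAA with GFP share the same 3 GFP arrays, so their values are set side by side only. AMD1 201197_at differed from GFP by -0.56 and 0.33, OAZ2 201364_s_at by 0.27 and -0.60, and the SAT1 probe sets 210592_s_at and 213988_s_at by 0.65 and -0.29 and by 0.55 and -0.50, with both values called at each of these 4. SRM, with -0.39 and -0.35, was the only member probe set called in the same direction in both. AZIN1 was also called higher in both, by different probe sets (212461_at and 201772_at after NR4A1 WT, 213747_at after NR4A1 CEAA). MYC, given for reference, was measured by 202431_s_at at 11.52, 11.59 and 11.55 after GFP, 10.24, 10.23 and 10.18 after NR4A1 WT, and 12.11 and 12.14 after NR4A1 CEAA. Its log2 difference from GFP was -1.33 after NR4A1 WT (limma adjusted p = 3.72e-06) and 0.57 after NR4A1 CEAA (limma adjusted p = 0.0014).

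Across the 8 arrays, the brightest probe sets of ODC1 and AMD1 had a Pearson r of 0.97, and SAT1 had an r of -0.99 with each of them. OAZ2 had an r of 0.88 with SAT1, and SRM an r of -0.96 with AZIN1. These values are descriptions over 8 arrays in 3 groups and the arrays of a group share their treatment. Of all genes, by their brightest probe set, STAMBPL1 (r = 0.998), SLC39A14 (0.995), NAE1, MLH3 and DROSHA (0.994 each) had the patterns most like that of ODC1. For SAT1 they were SLA (0.998), HEBP2 and ITGAE (0.997 each), ARHGAP25 and SEC14L1 (0.996 each). Correlation does not see size: NAE1 differed from GFP by -0.21 after NR4A1 WT where ODC1 differed by -0.48, and ARHGAP25 by 0.78 where SAT1 differed by 0.65.

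A further 24 genes supply precursors, salvage methylthioadenosine, move polyamines, regulate or break them down in parallel, or make hypusine, the spermidine-derived amino acid of translation factor eIF5A. Judged by the brightest probe set, the comparison of NR4A1 WT with GFP called 4 of the 24 higher and 3 lower, against 7.48% and 8.03% of all genes. AGMAT, annotated as agmatinase, which can make putrescine from agmatine, had the largest change. Its probe set 221648_s_at read 8.93, 8.89 and 8.75 after GFP, 10.27, 10.20 and 10.21 after NR4A1 WT, and 8.99 and 8.98 after NR4A1 CEAA. It was thus higher by 1.37 after NR4A1 WT (SE 0.07, limma adjusted p = 6.89e-06), and did not pass after NR4A1 CEAA (0.13, limma adjusted p = 0.317). EIF5A2, a second form of the hypusine-bearing factor, rose by 0.77 (limma adjusted p = 0.00786). SLC3A2, the heavy chain of amino acid transporters, fell by 0.54 (limma adjusted p = 0.00186), MAT2A, which makes S-adenosylmethionine, by 0.43 (limma adjusted p = 0.00314), and MRI1 of the salvage route by 0.40 (limma adjusted p = 0.00298). These 5 calls, each at the brightest probe set, held in all 16 alternative fits. The dimmer EIF5A2 probe set 235289_at rose by 0.47 (limma adjusted p = 0.0192), and 220198_s_at did not pass (0.15, limma adjusted p = 0.342). The dimmer MAT2A 200769_s_at (-0.30, limma adjusted p = 0.106) and MRI1 223770_x_at (-0.22, limma adjusted p = 0.179) did not pass either. A second AGMAT probe set, 222930_s_at, rose by 1.10 (limma adjusted p = 6.09e-05), while the dim 219792_at read 3.50 to 4.03 over all arrays and differed by -0.02.

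After NR4A1 CEAA, 2 of the 24 were higher and 4 lower than after GFP, where 5.2% and 9.57% of all genes were. Of the 4 hypusine genes EIF5A and DHPS fell and gave the largest changes of the 24 by the brightest probe set. A dimmer probe set of the transport gene ATP13A3, 219558_at, rose by 1.00 (limma adjusted p = 0.00331). The brightest ATP13A3 probe set, 212297_at, differed by 0.39 and did not pass (limma adjusted p = 0.0543). EIF5A probe set 201123_s_at read 11.43, 11.37 and 11.46 after GFP, 11.11, 11.31 and 11.25 after NR4A1 WT, and 10.22 and 10.17 after NR4A1 CEAA. It fell by 1.22 after NR4A1 CEAA (SE 0.08, limma adjusted p = 0.000169), and the other EIF5A probe sets fell by 0.72 and 0.62 (limma adjusted p = 0.000863 and 0.0012). DHPS, deoxyhypusine synthase, which takes its aminobutyl group from spermidine, read 9.57 to 9.72 after GFP, 9.61 to 9.71 after NR4A1 WT, and 8.85 and 9.11 after NR4A1 CEAA at 207831_x_at. It fell by 0.67 there (limma adjusted p = 0.00335), and by 0.79 and 0.78 at its other probe sets (limma adjusted p = 0.000836 and 0.000657). The vesicular polyamine transporter SLC18B1 rose by 0.58 (limma adjusted p = 0.0227) and OAT rose by 0.36 (limma adjusted p = 0.00901). ADI1 of the salvage route fell by 0.36 at its brightest probe set, 222400_s_at (limma adjusted p = 0.0126). The other ADI1 probe sets did not fall, with 0.06 at 217761_at (limma adjusted p = 0.634) and 0.13 at 241443_at (limma adjusted p = 0.591). The EIF5A and DHPS calls held in all alternative fits. Without NR4A1 CEAA replicate 1 or replicate 2 the adjusted p was 0.128 or 0.127 for SLC18B1, 0.0718 or 0.0703 for OAT and 0.102 or 0.0716 for ADI1, and for SLC18B1 it was also 0.0544 without GFP replicate 1 and 0.0622 without GFP replicate 2. The other hypusine genes did not pass at their brightest probe set, EIF5A2 with 0.42 (limma adjusted p = 0.123) and DOHH with -0.29 (limma adjusted p = 0.0849), while the dimmer EIF5A2 probe set 235289_at was called higher (0.41, limma adjusted p = 0.0475). Neither EIF5A nor DHPS passed after NR4A1 WT at any of their 3 probe sets each, with EIF5A at -0.08 to -0.22 and DHPS at 0.00 to 0.06.

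NR4A1 WT against NR4A1 CEAA gave 5 higher and 8 lower calls among the 24 genes, against 15.6% and 11.5% of all genes. The largest by the brightest probe set were AGMAT at 1.24 (limma adjusted p = 2.25e-05), EIF5A at 1.03 (6.59e-05), SLC18B1 at -0.88 (0.00148), DHPS at 0.69 (0.00101) and ADI1 at 0.63 (0.000381), all called in all 16 alternative fits. At the dimmer ATP13A3 probe set 219558_at the difference was -1.24 (limma adjusted p = 0.000387), and at the brightest, 212297_at, -0.45 (limma adjusted p = 0.0201). The call at 212297_at was made in 11 of 16 alternative fits. Among the fits that lost it were those with only the arrays of both groups (limma adjusted p = 0.0557), with the replicate block (0.053) and without NR4A1 WT replicate 2 (0.0547). The other ADI1 probe sets differed by 0.21 at 217761_at (limma adjusted p = 0.0437) and by -0.01 at 241443_at (limma adjusted p = 0.972). The median of the 24 genes was 0.14, against 0.03 for the brightest probe sets of all genes. Of the 24, by the brightest probe set, Rank Product called AGMAT (q = 0.000292) and EIF5A2 (q = 0.0156) higher for NR4A1 WT against GFP. It called EIF5A lower for NR4A1 CEAA against GFP (q = 0.00135), and AGMAT (q = 0.0217) and EIF5A (q = 0.0398) higher for NR4A1 WT against NR4A1 CEAA. Some dimmer probe sets were also called, among them ATP13A3 219558_at, higher for NR4A1 CEAA against GFP (q = 0.0221) and lower for NR4A1 WT against NR4A1 CEAA (q = 0.0267).

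**Figure D3:**
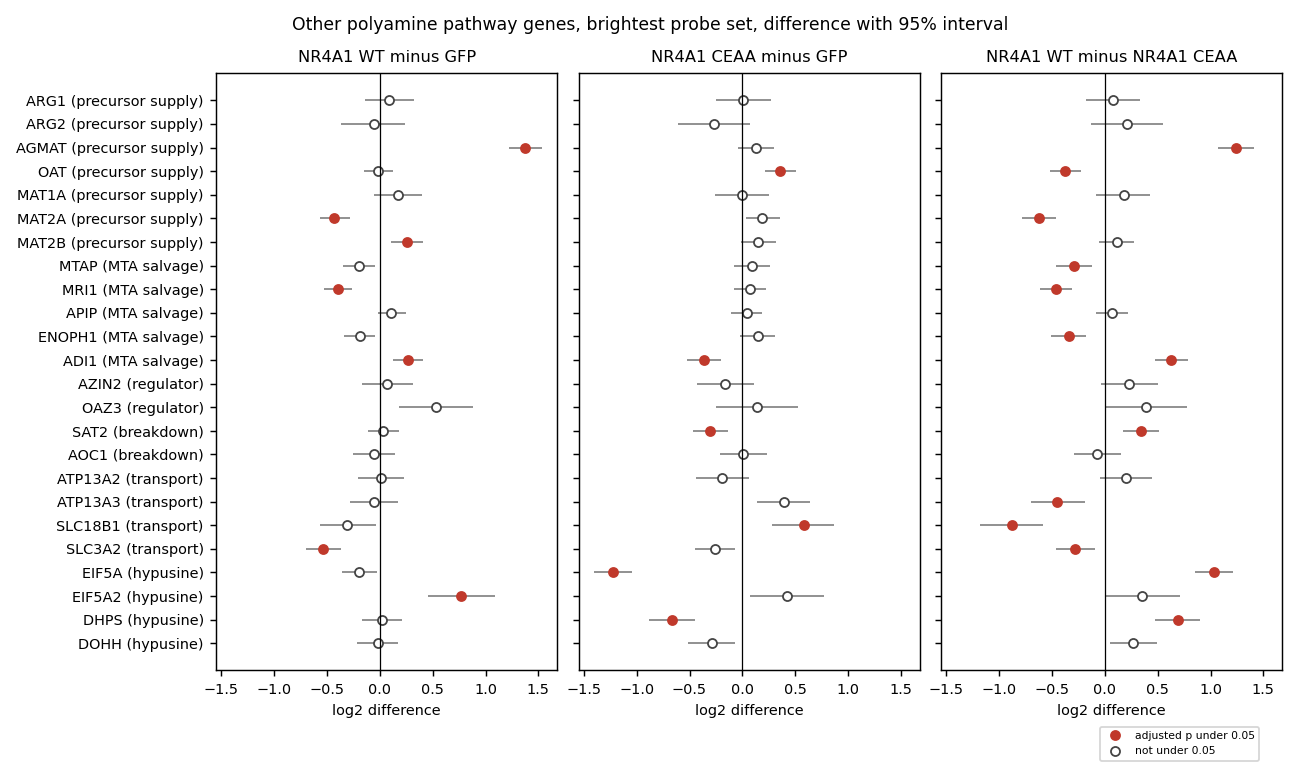
Log2 difference of group means for the brightest probe set of the other 24 polyamine pathway genes, with their class in brackets, in the 3 comparisons; bars are 95% intervals from limma and filled red points have an adjusted p under 0.05. AGMAT stands at 1.37 after NR4A1 WT and at 0.13 after NR4A1 CEAA, while EIF5A and DHPS stand at -1.22 and -0.67 after NR4A1 CEAA.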

How the data were processed

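Kasumi-1 total RNA was hybridised to 8 Affymetrix U133 Plus 2.0 arrays. The authors normalized probe fluorescence by RMA in RMA Express (version not given in the sources used here) and deposited log2 intensities. Detection calls were not used here, and the number of arrays limits the precision. Gene names came from the platform annotation: 41091 probe sets had 1 symbol, 1801 several and 11721 none, and 19735 of 19775 genes matched a RefSeq gene. One more SAT1 probe set, which also carries another symbol, was left out.

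The deposited log2 values were fitted as they stood with limma 3.58.1 in R 4.3.3, with 3 groups in 1 linear model, eBayes moderation and Benjamini-Hochberg adjustment over all 54613 probe sets. Folds are 2 to the power of the log2 difference. Rank Product, the test of the study, was run as an alternative with 100 permutations. Other alternatives changed the variance prior, array weights, arrays fitted, normalization, filter, block, threshold or probe set selection, or left out 1 array. The limma fit and Rank Product were also run on simulated data in which few probe sets changed. Those runs covered neither as many calls as were made here nor a comparison with the NR4A1 CEAA arrays. The text names all 10 members and the 5 genes most correlated with ODC1 and with SAT1. Of the 24 other pathway genes it names up to 5 per comparison, by size of change among those called at the brightest probe set. The other hypusine genes, and ATP13A3 for a dimmer probe set, were added. The members and lists were chosen with earlier results of these data known.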

Additional observations from a re-analysis of the deposited data

How the results depend on the processing

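Leaving out each array in turn left 8 to 11 of the 22 member probe sets called for NR4A1 WT against GFP (13 with all arrays), 1 to 9 for NR4A1 CEAA against GFP (7 with all arrays, 1 without NR4A1 CEAA replicate 1 and 2 without replicate 2) and 10 to 14 between both NR4A1 groups (13 with all arrays). Over all probe sets the calls were 3857 to 5130 (5801 with all arrays), 1828 to 7241 (6951) and 7003 to 11829 (12086), and over the 24 other genes 5 to 6 (7), 2 to 8 (6) and 8 to 13 (13). With only the arrays of both groups compared, 8, 8 and 11 member probe sets passed in the 3 comparisons, and 4792, 7635 and 9653 probe sets overall. With the replicate block, 8, 3 and 12 member probe sets passed in the 3 comparisons, 5, 5 and 11 of the other genes, and 4686, 3988 and 9813 probe sets overall. Deviations of arrays with the same replicate number correlated at -0.029 to 0.063, so the numbers were not taken as pairs. For NR4A1 CEAA against GFP, 11 member probe sets passed with the intensity trend, with array weights and without dim probe sets. The calls over all probe sets rose as well, to 10065 and 9759 of 54613, and to 9083 of the 27263 left without dim probe sets. With 1 probe set per gene, 7, 6 and 5 of the 10 genes passed in the 3 comparisons. Of all 19775 genes, 4005, 3796 and 6225 passed in the 3 comparisons. That fit estimated the variance anew and tested fewer probe sets, and the part of each was not tested. At an adjusted p under 0.01, 8, 2 and 10 member probe sets passed in the 3 comparisons, with 3051, 2590 and 7128 probe sets overall. Rank Product called 2, 0 and 1 member probe sets and 1486, 758 and 981 overall.

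The same settings were applied to the 24 other genes after seeing the data. There the intensity trend gave 11, 13 and 14 calls in the 3 comparisons, and the filter on dim probe sets, which left 20 of the genes, 10, 10 and 14. An adjusted p under 0.01 gave 5, 3 and 9, and Rank Product 2, 1 and 2. The causes of these shifts were not tested where not stated.

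No called member difference changed sign under any of these settings. Signs turned only at differences near 0 that were not called. For NR4A1 WT against GFP, leaving out arrays moved OAZ1 215952_s_at between -0.017 and 0.023, SMOX 217074_at between -0.039 and 0.179 and SMOX 1555680_a_at between -0.172 and 0.332. For NR4A1 CEAA against GFP, SMOX 1555680_a_at moved between -0.061 and 0.211. Between both NR4A1 groups, SMOX 1555680_a_at moved between -0.245 and 0.259 and was 0.007 with array weights, SMOX 210357_s_at moved between -0.063 and 0.086 and was -0.017 with the replicate block, and AZIN1 212461_at was -0.027 after another quantile normalization.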
